A study of Mus musculus with 10 samples.

Results

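The glucose and lactate transporters treated here were 10 genes chosen by symbol, out of 24470 gene entries counted in cultured mouse fetal testes. They were the glucose carriers Slc2a1, Slc2a3, Slc2a4, Slc2a8, Slc2a10 and Slc2a12, the monocarboxylate carriers Slc16a1, Slc16a3 and Slc16a7, and Bsg, which encodes a chaperone of the monocarboxylate carriers. All 10 were found in the table and passed the filter on low counts, as did 13941 entries in all. Gonads still joined to the mesonephros were taken at E12.5 from 5 male C57BL/6 embryos (M1 to M5), and 1 gonad of each was cultured for 48 h with 75 µM of an inhibitor of glycogen phosphorylase (GPI) and the other with the solvent DMSO (vehicle). The mesonephros was then cut away and RNA of the whole gonad was sequenced, which gave 5 vehicle and 5 GPI libraries. Transcripts of Sox9, which specifies Sertoli cells, the supporting cells of the testis, were present at 984 to 1545 normalized counts with vehicle and at 1494 to 2141 with GPI.

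Glucose enters most cells by facilitated diffusion through carriers of the GLUT family, which the Slc2a genes encode. Lactate and pyruvate cross the membrane together with a proton through monocarboxylate transporters (MCTs), encoded by Slc16a genes, and several MCTs reach the cell surface only when bound to the membrane glycoprotein basigin. In the adult testis, Sertoli cells are known to take up glucose and to release lactate that germ cells use as fuel.

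Libraries held 11114376, 10203679, 10835341, 12220168 and 15590223 counts with vehicle (M1 to M5) and 11025409, 15635322, 13639929, 11691690 and 11468668 with GPI. Normalized counts below are counts scaled by the trimmed mean of M values (TMM) to a common library size. A gene was called changed at an adjusted p below 0.05 in edgeR's quasi-likelihood test with the mouse in the model, and log2 fold changes are GPI over vehicle. The pair from M1 stood apart from the other 4 for several of these genes, so that values without M1 stand beside many of those below. M1 was singled out after these values were seen. For a gene where M1 went the other way, leaving it out lowers the spread, so p-values and calls without M1 are a description and no independent support. Some genes not called had log2 fold changes that moved by over 1.5 times with 1 mouse left out. For these, the leave-one-out range gives the lowest and highest value over those of the 5 such fits that tested the gene. Among all tested genes, 528 (3.79%) were lower with GPI in M2 to M5 and higher in M1, and 663 (4.76%) showed the opposite.

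Of the 10 transporter genes, 4 were called changed by GPI, against 22.9% of all tested genes. Slc2a1 was the 1 gene called lower (11.9% of tested genes were) and Slc2a4, Slc16a1 and Slc16a7 were called higher (11.1% of tested genes were). The median log2 fold change of the 10 genes was -0.06, against 0.02 over all tested genes, and -0.20 without M1, against 0.00. Without M1, 7 of the 10 were called, against 22.1% of tested genes: the same 3 were higher (10% of tested genes were), and Slc2a1, Slc2a3, Slc16a3 and Bsg were lower (12.1% of tested genes were). With M2 left out instead, 5 were called, and with M3, M4 or M5 left out, 4 were called. Normalized counts did not overlap between vehicle and GPI for Slc2a4, Slc16a1 and Slc16a7, 3 of 10 genes, against 16.1% of tested genes. Slc2a1, Slc16a3 and Bsg, again 3 of 10, were lower with GPI in M2 to M5 and higher in M1, against 3.79% of tested genes. The pattern was defined after the values of these genes were seen, so this share describes them and tests nothing.

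**Figure D1:**
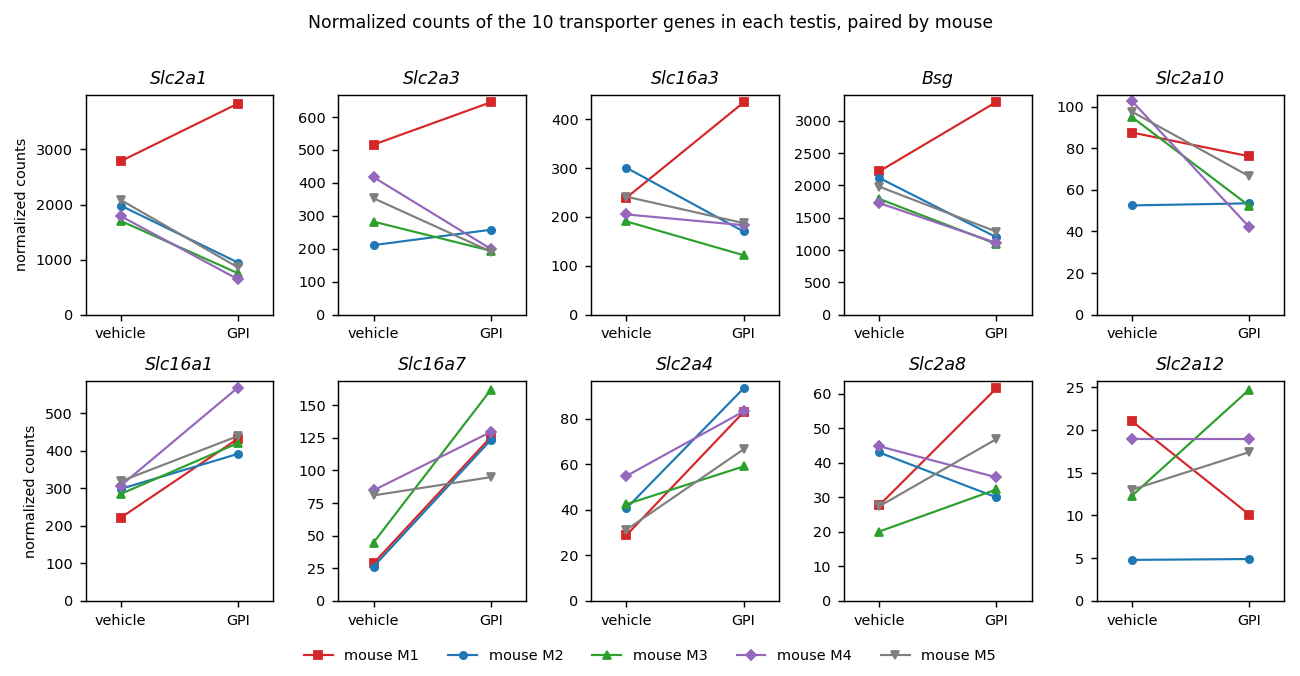
Normalized counts (vertical axis, from 0) of each of the 10 genes in the vehicle and the GPI-treated testis, with a line joining the gonads of each mouse. Slc16a1, Slc16a7 and Slc2a4 were higher with GPI in 5 of 5 mice, while for Slc2a1, Slc16a3 and Bsg the line of M1 rises and the lines of M2 to M5 fall.

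Slc2a1 (Entrez 20525, chr4:119108745-119137330, mm10) encodes GLUT1, the carrier for basal glucose uptake in many fetal tissues. Its normalized counts in vehicle testes M1 to M5 were 2786, 1981, 1703, 1790.0 and 2084. In GPI-treated testes they were 3832, 947, 753, 644 and 859. M1 was thus the highest library of each group, and the GPI values of M2 to M5 lay below every vehicle value. The log2 fold change was -0.91 (SE 0.21, n = 5 pairs, adjusted p = 0.00599 in edgeR), 1.88-fold lower with GPI, with lower counts in 4 of 5 mice. Without M1 it was -1.26 (SE 0.09, adjusted p = 2.11e-07 in edgeR), 2.40-fold lower. When the mouse was left out of the model, the log2 fold change was -0.56 and the gene was not called (adjusted p = 0.348 in edgeR).

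Slc2a3 (Entrez 20527, chr6:122727809-122742745) encodes GLUT3, a carrier of high affinity for glucose that is best known from neurons. Normalized counts were 516, 211, 282.5, 417 and 353.5 with vehicle and 645, 258, 194, 199.9 and 192 with GPI. M1 was again the highest library of each group, M1 and M2 were higher with GPI and M3 to M5 lower, and the ranges of the groups overlapped. The log2 fold change of -0.37 (SE 0.19) was not called (adjusted p = 0.199 in edgeR), while without M1 it was -0.57 (SE 0.19) and was called (adjusted p = 0.0402 in edgeR; 0.0402 to 0.614 over all alternatives tried). The leave-one-out range was -0.57 to -0.19, with -0.19 without M4 and -0.24 without M5.

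Slc2a4 (Entrez 20528, chr11:69942286-69948190) encodes GLUT4, which insulin moves from intracellular vesicles to the surface of muscle and fat cells. It was counted at 28.8, 40.6, 42.4, 54.8 and 31.2 with vehicle and at 82.8, 93.2, 59.0, 83.1 and 66.5 with GPI. The lowest GPI value lay above the highest vehicle value. Slc2a4 rose by a log2 fold change of 0.97 (SE 0.24, adjusted p = 0.00843 in edgeR), 1.96-fold, with higher counts in 5 of 5 mice, and the call was kept without M1 (0.82, SE 0.26, adjusted p = 0.0335 in edgeR).

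The other 3 glucose carriers were not called. Slc2a10, which encodes GLUT10, was counted between 52.5 and 103 with vehicle and between 42.1 and 76.1 with GPI (log2 fold change -0.57, SE 0.22, adjusted p = 0.0861 in edgeR). It passed the threshold when M2 was left out (-0.71, adjusted p = 0.0476 in edgeR; 0.0476 to 0.309 over all alternatives). Slc2a8, which encodes the intracellular carrier GLUT8, had vehicle counts of 20.1 to 44.8 and GPI counts of 30.0 to 61.6 (0.34, SE 0.33, adjusted p = 0.508 in edgeR; leave-one-out range 0.12, without M1, to 0.56), with GPI above vehicle in M1, M3 and M5 and below it in M2 and M4. Slc2a12, which encodes GLUT12, was the gene with the lowest counts, with vehicle counts of 4.8 to 21.0 and GPI counts of 4.9 to 24.7 (0.10, SE 0.43, adjusted p = 0.897 in edgeR; leave-one-out range -0.16 to 0.38, the latter without M1). Its locus overlaps Tbpl1 on the other strand. Overlaps named here and below are of whole gene spans, introns included, and whether exons overlap was not examined. Since reads were counted without regard to strand, reads of any shared exon cannot be assigned to either gene.

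Slc16a3 (Entrez 80879, chr11:120948484-120959000) encodes MCT4, the carrier by which glycolytic cells export lactate. Normalized counts in vehicle testes M1 to M5 were 239, 301, 191, 205 and 241.5. In GPI-treated testes they were 434, 170.3, 122, 183 and 187. GPI-treated M1 was above all other libraries, whereas treated M2 to M5 lay below every vehicle value, by a narrow margin in M4 and M5. With all mice the log2 fold change was -0.22 (SE 0.20, adjusted p = 0.488 in edgeR) and was not called. Without M1 it was -0.52 (SE 0.15) and was called (adjusted p = 0.0238 in edgeR; 0.0238 to 0.879 over all alternatives). It was nearer to 0 without M2 (-0.06), without M3 (-0.14) and without the mouse in the model (-0.11).

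Slc16a1 (Entrez 20501, chr3:104638664-104658462) encodes MCT1, a carrier of broad distribution that moves lactate in either direction. Normalized counts were 221.5, 298, 285, 307 and 318.5 with vehicle. With GPI they were 432, 392, 420.3, 568 and 439. Every treated gonad was above every vehicle gonad, and M1, lowest of the vehicle group, had the largest log2 ratio within a mouse (0.96). Slc16a1 rose by a log2 fold change of 0.65 (SE 0.11, adjusted p = 0.000856 in edgeR), 1.57-fold, in 5 of 5 mice, and by 0.56 without M1 (SE 0.12, adjusted p = 0.00314 in edgeR).

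Slc16a7 (Entrez 20503, chr10:125227485-125328535) encodes MCT2, a carrier of high affinity for lactate and pyruvate. It was counted at 28.8, 26.3, 44.7, 84.7 and 80.8 with vehicle and at 125, 123, 162, 129 and 94.8 with GPI. The groups did not overlap, though vehicle M4 and M5 were well above vehicle M1 to M3. The within-mouse log2 ratios were accordingly 2.05, 2.15 and 1.81 in M1 to M3 and 0.60 and 0.23 in M4 and M5. Slc16a7 rose by a log2 fold change of 1.34 (SE 0.29, adjusted p = 0.00386 in edgeR), 2.53-fold, and by 1.15 without M1 (SE 0.30, adjusted p = 0.0122 in edgeR).

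Bsg (Entrez 12215, chr10:79704358-79711979) encodes basigin, the partner that carries MCT1 and MCT4 to the plasma membrane. Normalized counts in vehicle testes were 2218, 2117, 1793, 1728 and 1982. In GPI-treated testes they were 3293, 1199, 1094, 1111 and 1285. The vehicle values lay close together, while treated M1 was above all of them and treated M2 to M5 below all of them. The log2 fold change with all mice was -0.45 (SE 0.16) and missed the threshold (adjusted p = 0.0582 in edgeR). Without M1 it was -0.72 (SE 0.08, adjusted p = 1.53e-05 in edgeR), 1.64-fold lower, and the leave-one-out range was -0.72 to -0.35. It was also called with scaling by total counts alone (-0.50, adjusted p = 0.0408 in edgeR) and with no filter on low counts (-0.45, adjusted p = 0.00562 in edgeR), and over all alternatives its adjusted p in edgeR or DESeq2 ran from 1.53e-05 to 0.435.

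**Figure D2:**
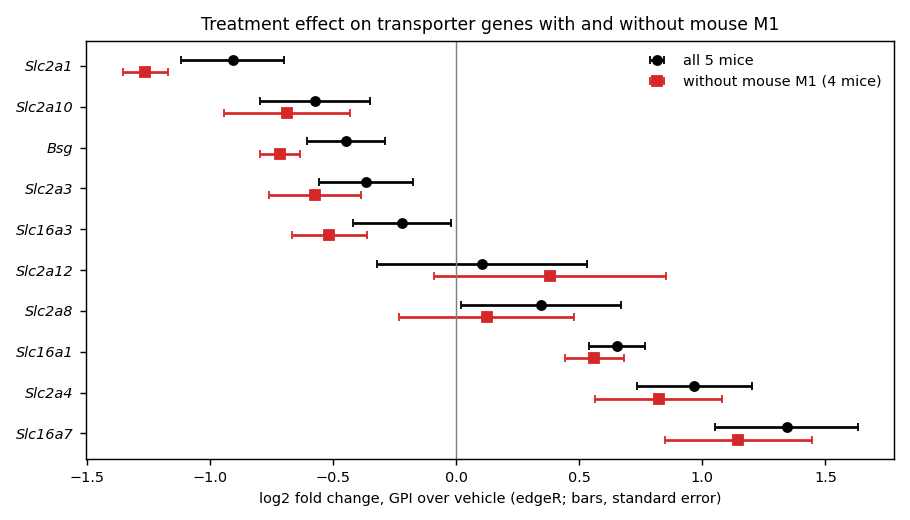
Log2 fold change of GPI over vehicle (horizontal axis; error bars, SE of the edgeR fit) for each gene with all 5 mice (black circles) and without M1 (red squares). Leaving M1 out moved Slc2a1 from -0.91 to -1.26 and Bsg from -0.45 to -0.72, and Slc16a1, Slc2a4 and Slc16a7 stayed above 0 in both fits.

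Promoter windows of 6 of the 10 genes were matched in RefSeq (GRCm38.p6), each from 250 bases before the annotated start to 50 bases after it: Slc2a1, Slc2a8, Slc2a10, Slc2a12, Slc16a1 and Slc16a3. Slc2a3, Slc2a4, Slc16a7 and Bsg were not matched. Slc2a1 and Slc16a3, which were lower in M2 to M5 and higher in M1, are shown beside Slc16a1, which was higher in all mice. Capitals mark the letters ACGTG, or CACGT for the same letters on the reverse strand, which lie at the core of the element known for hypoxia-inducible factors.
Slc2a1, chr4:119108495-119108794, plus strand: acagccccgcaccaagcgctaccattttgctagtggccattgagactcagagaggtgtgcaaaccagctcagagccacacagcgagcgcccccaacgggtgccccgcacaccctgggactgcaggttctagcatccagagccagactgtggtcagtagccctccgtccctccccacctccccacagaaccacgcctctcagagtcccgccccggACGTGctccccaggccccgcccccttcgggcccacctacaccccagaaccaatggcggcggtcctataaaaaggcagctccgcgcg
Slc16a3, chr11:120948817-120949116, plus strand: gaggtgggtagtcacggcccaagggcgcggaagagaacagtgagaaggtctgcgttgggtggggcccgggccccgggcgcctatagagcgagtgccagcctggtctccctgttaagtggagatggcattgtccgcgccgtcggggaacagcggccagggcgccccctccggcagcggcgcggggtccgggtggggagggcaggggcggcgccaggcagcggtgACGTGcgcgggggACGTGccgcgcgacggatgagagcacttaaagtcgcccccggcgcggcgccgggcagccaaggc
Slc16a1, chr3:104638414-104638713, plus strand: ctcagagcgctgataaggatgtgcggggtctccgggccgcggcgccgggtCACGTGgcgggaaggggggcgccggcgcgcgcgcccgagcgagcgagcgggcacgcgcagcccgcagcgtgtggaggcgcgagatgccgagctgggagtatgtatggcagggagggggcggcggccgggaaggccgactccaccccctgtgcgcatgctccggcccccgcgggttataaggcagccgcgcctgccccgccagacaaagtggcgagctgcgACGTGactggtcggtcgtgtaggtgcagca

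Of the 32851 promoter windows of this length, 19.6% held ACGTG or its reverse, and 4 of the 6 matched here did. These 4 were also the richest in G and C: Slc16a1 73.7%, Slc16a3 73.3%, Slc2a1 65.3% and Slc2a10 60.7%, against 55.7% in Slc2a8 and 47.0% in Slc2a12. The share of 19.6% is over windows of any base composition, so the 2 shares are not matched for it. With the base before the start counted as -1, the match in Slc2a1 began at -36, and those in Slc16a3 at -27 and -14. In Slc16a1 the matches at -200 and -199 overlap, since they are both strands of the palindrome CACGTG, which 7.15% of windows held, and a further match began at 21. Slc2a10 had 1 match, at 22, and Slc2a8 and Slc2a12 had 0. The letters were thus in the windows of Slc2a1 and Slc16a3 as well as in that of Slc16a1. For Slc16a3 the window belongs to a start that lies downstream of the outermost start in the count table. A match describes the letters of the window and shows no binding.

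Levels of different genes were compared as TPM, computed here as counts per exon length scaled to the same total in every library, as mean ± SD over 5 libraries. In vehicle testes the highest level was that of Bsg (289.8 ± 30.4 TPM), followed by Slc2a1 (150.4 ± 31.3 TPM), and the 2 did not overlap. Slc2a3 (21.3 ± 7.06 TPM), Slc16a1 (15.3 ± 2.22 TPM) and Slc16a3 (12.53 ± 2.15 TPM) came next, and neighbours in that order overlapped. Slc2a10 (5.84 ± 1.41 TPM), Slc16a7 (5.23 ± 2.83 TPM), Slc2a4 (3.71 ± 0.924 TPM) and Slc2a8 (3.65 ± 1.15 TPM) overlapped with each other and were below Slc16a3. Slc2a12 (0.797 ± 0.360 TPM) was below all others.

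In GPI-treated testes Bsg was at 219 ± 139.9 TPM and Slc2a1 at 95.8 ± 96.9 TPM, with SDs that are mostly the distance of M1 from the rest. Slc2a1 levels per length were 269 TPM in treated M1 and 62.3, 46.9, 43.8 and 57.3 TPM in treated M2 to M5. Slc16a1 was at 22.1 ± 3.82 TPM, Slc16a7 at 11.3 ± 1.84 TPM and Slc16a3 at 10.9 ± 6.56 TPM. In treated M1 to M5, Slc16a3 was at 22.3, 8.21, 5.55, 9.13 and 9.17 TPM and Slc16a7 at 11.8, 10.9, 13.6, 11.9 and 8.53 TPM, so that Slc16a3 was above Slc16a7 in M1 and M5 and below it in M2 to M4. Of the summed TPM of the 3 MCT genes, Slc16a3 made up 46.5, 46.3, 34.1, 30.7 and 34.0% in vehicle M1 to M5 and 39.5, 21.5, 14.5, 18.5 and 23.3% with GPI. The share of Slc16a7 was 10.3, 7.44, 14.7, 23.3 and 20.9% with vehicle and 21.0, 28.7, 35.3, 24.0 and 21.7% with GPI. In each mouse the share of Slc16a3 was lower and that of Slc16a7 higher in the treated gonad. Slc2a1 made up 80.9 ± 3.68% of the summed TPM of the 6 GLUT genes with vehicle and 70.2 ± 7.34% with GPI, from 62.8 to 68.7% in treated M2 to M5 and 82.5% in treated M1.

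**Figure D3:**
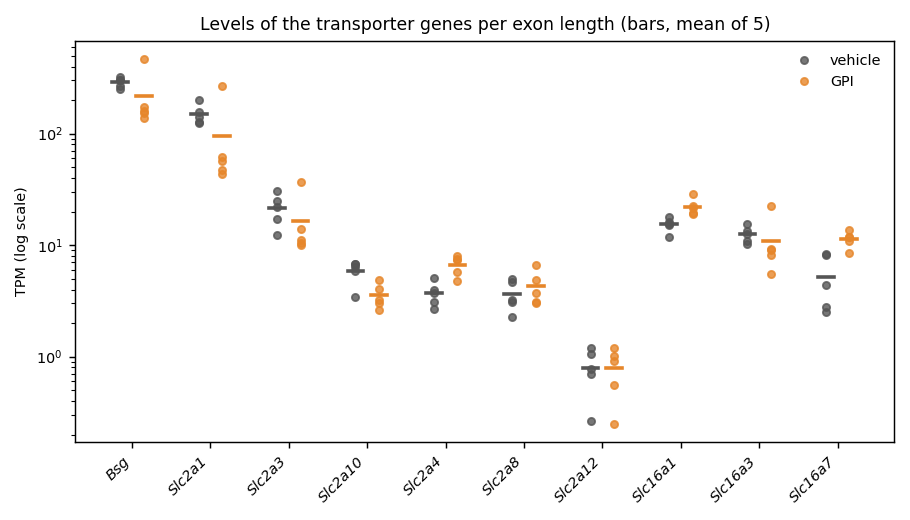
Level of each gene in TPM (vertical axis, log scale) in each vehicle (grey) and GPI (orange) library; horizontal bars are means of 5 libraries. Bsg and Slc2a1 had the highest levels in both groups, and 1 GPI library, M1, lies above the other 4 for Bsg, Slc2a1, Slc2a3 and Slc16a3, among others.

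Whether paired carriers changed by different amounts was tested on the log2 ratio of their counts in each library, in which scaling cancels. The ratio of Slc16a3 to Slc16a1 was 0.11, 0.01, -0.58, -0.58 and -0.40 in vehicle M1 to M5. With GPI it was 0.01, -1.20, -1.78, -1.63 and -1.23. It was lower with GPI in 5 of 5 mice, by little in M1, and treated M1 lay within the vehicle range while M2 to M5 lay below it. The mean difference was -0.88 on the log2 scale (two-sided exact permutation p = 0.0317 over 252 regroupings), and after adjustment over the 2 ratios tested the exact p was 0.0635, above the threshold. These regroupings ignore the pairing by mouse. A sign-flip test over the 5 pairs, which keeps it, gave an exact p of 0.0625, the smallest that 5 pairs allow, and 0.125 after adjustment. Without M1 the mean difference was -1.07 (adjusted exact permutation p = 0.0571).

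The ratio of Slc2a3 to Slc2a1 was -2.43, -3.23, -2.59, -2.10 and -2.56 with vehicle and -2.57, -1.88, -1.95, -1.68 and -2.16 with GPI. It was higher with GPI in M2 to M5, slightly lower in M1, and the groups overlapped. The mean difference of 0.53 did not pass the threshold (two-sided exact permutation p = 0.0635, also 0.0635 after adjustment), and a sign-flip test over the pairs gave an exact p of 0.125. It was 0.70 without M1 (adjusted exact permutation p = 0.0571) and 0.33 without M2 (adjusted exact permutation p = 0.229).

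**Figure D4:**
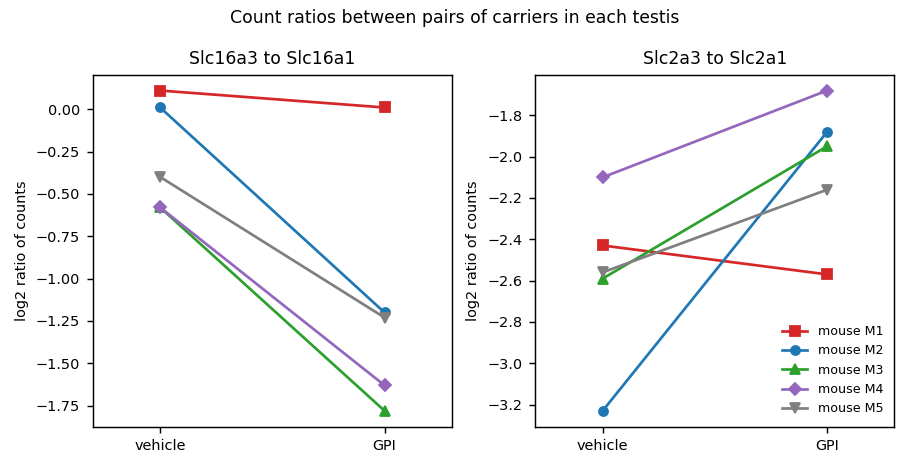
Log2 ratio of counts between Slc16a3 and Slc16a1 (left) and between Slc2a3 and Slc2a1 (right) in the vehicle and the GPI-treated testis of each mouse. The left ratio was lower with GPI in 5 of 5 mice, and the right ratio was higher in 4 of 5, with M1 as the exception.

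Across the 10 libraries, log2 levels of Slc2a1 followed those of Bsg with a Pearson r of 0.98, and those of Slc2a3 and Slc16a3 with r of 0.86 and 0.83. Slc16a1 followed Slc2a4 (r = 0.83) and Slc16a7 (r = 0.82), while Slc16a1 and Slc16a3 had an r of -0.20. These values describe 10 libraries that share 2 treatments and 5 mice, M1 included. Over the 8 libraries of M2 to M5, a choice made after seeing the data, r was 0.98 for Slc2a1 with Bsg, 0.70 with Slc2a3 and 0.74 with Slc16a3. For Slc16a1 it was 0.75 with Slc2a4, 0.72 with Slc16a7 and -0.52 with Slc16a3. Among 11104 other tested genes that averaged 50 counts or more, the most similar to Slc2a1 were Pdk1 (r = 0.987), Gpi1 (r = 0.983), Asph (r = 0.982, a gene overlapped by Clvs1 on the other strand), Vegfa (r = 0.980) and Jmjd6 (r = 0.980), with Spearman rho of 0.939 to 0.988. Pdk1 encodes a kinase that inhibits pyruvate dehydrogenase, Gpi1 a glycolytic isomerase and Vegfa an endothelial growth factor. Those most similar to Slc16a3 were the uncharacterized 5430416N02Rik (r = 0.953), Aldoa (r = 0.952) and Pgm1 (r = 0.935), which encode aldolase and phosphoglucomutase, Plekha2 (r = 0.933) and Zbtb4 (r = 0.919), with rho of 0.927 to 0.976. For Slc2a3 they were Jarid2 (r = 0.961), Fam117b (r = 0.955), Alkbh5 (r = 0.945), Plekhf2 (r = 0.945) and Vdac1 (r = 0.941), with rho of 0.927 to 0.964. Those most like Slc16a1 were Slc19a2 (r = 0.985), which encodes a thiamine transporter, Rnf181 (r = 0.980, overlapped by Tmem150a on the other strand), Paqr8 (r = 0.976), Tmem119 (r = 0.971) and Tmem86a (r = 0.970), with rho of 0.879 to 0.952. Over the 8 libraries without M1, r ran from 0.968 to 0.989 for the 5 genes named for Slc2a1, from 0.854 to 0.924 for those of Slc16a3, from 0.895 to 0.954 for those of Slc2a3 and from 0.962 to 0.988 for those of Slc16a1. The genes were picked for high r over all 10 libraries, which include these 8, so these values are no separate check.

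Of 26 further genes of these transporter families, 16 were tested and 2 were called, against 22.9% of all tested genes. Of 11 further glucose transporter genes, 5 passed the filter on low counts, 0 were called higher and 1 lower in edgeR, as in DESeq2 (median log2 fold change -0.32; -0.03 without M1). At an unadjusted p under 0.05, 1 of the 5 was higher, Slc2a2, and 1 lower, against 34% of all tested genes either way. The gene called was Slc2a13, which encodes a proton-coupled myo-inositol carrier, at 263.5, 248, 224, 284 and 249 normalized counts with vehicle and 257, 170.3, 170.2, 147 and 132 with GPI. It was nearly equal in the gonads of M1 and lower with GPI in M2 to M5 (-0.56, SE 0.15, adjusted p = 0.0134 in edgeR; -0.72 without M1), and the call was lost without M4 (-0.47, adjusted p = 0.0741 in edgeR) or without M5 (-0.48, adjusted p = 0.0613 in edgeR). The log2 fold changes of the 4 not called were 0.85 for Slc2a2, -0.32 for Slc2a9 (leave-one-out range -0.45 to -0.18), -0.67 for Slc5a2, which overlaps Rusf1 on the other strand and was below the filter without M1, and 0.22 for Slc50a1 (leave-one-out range 0.02 to 0.34).

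Of 15 further monocarboxylate transporter and chaperone genes, 11 passed the filter, 1 was called higher and 0 lower in edgeR, as in DESeq2 (median 0.06, and 0.18 without M1), against 11.1% and 11.9% of all tested genes. At an unadjusted p under 0.05, Slc16a6, Slc16a9 and Slc16a14 were higher and Nptn lower, 4 of 11, against 34% of all tested genes. Slc16a6, which encodes MCT7, was higher with GPI in 5 of 5 mice (0.84, SE 0.23, adjusted p = 0.0168 in edgeR), most of all in M1, at 161 against 53.2 normalized counts. Without M1 it was not called (0.63, adjusted p = 0.0961 in edgeR), though no GPI value reached down to the vehicle values, and its locus overlaps Arsg and Gm45916 on the other strand. Nptn and Emb, which encode neuroplastin and embigin, relatives of basigin that also escort MCTs, had log2 fold changes of -0.20 and -0.03 (Emb, leave-one-out range -0.36 to 0.27). Slc16a14 (1.06) was not called; it was at 0.69 without M1 (adjusted p = 0.315 in edgeR) and at 1.44 without M5, where it was called (adjusted p = 0.0392 in edgeR). Nptn, which overlaps Rec114 on the other strand, was called with scaling by total counts alone (-0.25, adjusted p = 0.0268 in edgeR). Also tested, and not called, were Slc16a4 (0.06, leave-one-out range -0.08 to 0.13), Slc16a9 (0.45), Slc16a10 (0.28) and Slc16a11 (-0.72). Slc16a12 (-1.14, range -1.80 to -0.39, the latter without M1) and Slc16a13 (-0.57, range -0.71 to -0.33, the latter without M1) were not called either. Slc16a12 was below the filter without M5.

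Of 13 tested genes for lactate and pyruvate handling, 2 were called higher and 4 lower (median 0.12), against 11.1% and 11.9% of all tested genes, with the same counts without M1 (median 0.04). Ldha, whose product makes lactate from pyruvate, was counted at 9203, 6458, 5924, 6287 and 5127 with vehicle and 10532, 3474, 1728, 1644 and 2356 with GPI (-1.11, SE 0.22, adjusted p = 0.00251 in edgeR; -1.45 without M1). Ldhb, the subunit that favours pyruvate formation, was at 881, 972.5, 891, 975 and 1013 with vehicle and 1101, 1182, 1419, 1564 and 1445 with GPI (0.49, SE 0.08, adjusted p = 0.000728 in edgeR). Ldha was lower in M2 to M5 and higher in M1, as Slc2a1 was, whereas Ldhb was higher in 5 of 5 mice and did not overlap, as Slc16a1 was. The hexokinase genes also differed in direction: Hk2 rose (0.47, SE 0.09, adjusted p = 0.0017 in edgeR) and Hk1, overlapped by Hk1os on the other strand, fell (-0.96, SE 0.23, adjusted p = 0.00763 in edgeR). The pyruvate dehydrogenase kinase genes Pdk1 (-1.17, SE 0.26, adjusted p = 0.0053 in edgeR) and Pdk4 (-0.83, SE 0.27, adjusted p = 0.0401 in edgeR) were called lower. All of the 4 genes called lower were lower in M2 to M5 and higher in M1. Pdk4 lost its call without M2, M3, M4 or M5 (-0.87, -0.85, -0.78 and -0.55), and was at -1.12 without M1, where Hk1 was at -1.34 and Pdk1 at -1.61. Without the mouse in the model, Ldha, Hk1, Pdk1 and Pdk4 were not called (adjusted p = 0.215, 0.0825, 0.257 and 0.18 in edgeR).

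Of 18 genes for trafficking and turnover of glucose carriers, 2 were called higher and 3 lower (median -0.03, and -0.06 without M1), against 11.1% and 11.9% of all tested genes, and 5 of 18 is near the 22.9% of all tested genes called either way. Without M1, 4 were called lower. The gene added was Vamp2, which encodes a vesicle SNARE protein (-0.28, adjusted p = 0.101 in edgeR; -0.37 without M1, with an adjusted p of 0.049998, and 0.049998 to 0.355 over all alternatives; leave-one-out range -0.37 to -0.18). Txnip and its relative Arrdc4 encode arrestins that promote removal of GLUT1 from the membrane and whose transcription is known to follow glucose supply. Txnip, overlapped by Gm15441 on the other strand, was at 898, 867.5, 906, 736 and 941 with vehicle and 1177, 363, 241, 296 and 374 with GPI (-1.08, SE 0.24, adjusted p = 0.00423 in edgeR). As with Slc2a1, treated M1 was the highest library and treated M2 to M5 the lowest. Arrdc4 had the same pattern (-0.76, SE 0.20, adjusted p = 0.0146 in edgeR) and lost its call without M2, M3 or M4 (-0.68, -0.71 and -0.62). Without M1, Txnip was at -1.47 and Arrdc4 at -1.01, and without the mouse in the model neither was called (adjusted p = 0.078 and 0.217 in edgeR). Of the 2 genes for AS160-type proteins that hold GLUT4 vesicles inside the cell, Tbc1d1 fell in 5 of 5 mice (-0.68, SE 0.10, adjusted p = 0.000238 in edgeR) and Tbc1d4 rose (0.43, SE 0.10, adjusted p = 0.00673 in edgeR; not called without M3, 0.36). Sort1, which encodes the GLUT4 vesicle protein sortilin, rose as well (0.49, SE 0.11, adjusted p = 0.00415 in edgeR).

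Of 14 genes of the hypoxia response, a program known to include Slc2a1 and Slc16a3 among its targets, 1 was called higher and 10 lower (median -0.99), against 11.1% and 11.9% of all tested genes. Without M1, 1 was called higher and 11 lower (median -1.34), against 10% and 12.1%. The gene added was Egln1, which encodes a further prolyl hydroxylase (-0.38, adjusted p = 0.124 in edgeR; -0.64 without M1, with an adjusted p of 0.000388, and 0.000388 to 0.542 over all alternatives; leave-one-out range -0.64 to -0.27). It was also called with no filter on low counts (adjusted p = 0.0301 in edgeR). Within mice the median was 0.39 in M1 and -1.21, -1.37, -1.23 and -1.49 in M2 to M5, and 8 of the 14 were lower in M2 to M5 and higher in M1, against 3.79% of all tested genes. Pattern and list were both chosen with results of these data known, so that count is a description. Egln3, which encodes a prolyl hydroxylase, was counted at 467, 614.5, 473.5, 510.0 and 477 with vehicle and 645, 80.3, 47.5, 58.9 and 74.1 with GPI (-2.27, SE 0.44, adjusted p = 0.00181 in edgeR; -3.02 without M1). Treated M1 was the highest of all 10 libraries and treated M2 to M5 were far below the vehicle group. Vegfa (-1.02, SE 0.24, adjusted p = 0.00648 in edgeR) and Adm (-1.79, SE 0.33, adjusted p = 0.00137 in edgeR) were also lower in M2 to M5 and higher in M1, and were at -1.41 and -2.31 without M1. Treated M1 was the highest library for Vegfa, whereas for Adm it was below vehicle M2 (909 against 1453 normalized counts). Without the mouse in the model, 7 of the 10 genes called lower were not called, Egln3 and Vegfa among them (adjusted p = 0.0617 and 0.216 in edgeR), and DESeq2 called 7 of the list lower. The genes of the factors themselves did not share this pattern: Hif1a was higher in 5 of 5 mice (0.53, SE 0.09, adjusted p = 0.000529 in edgeR) and Epas1 lower in 5 of 5 (-1.25, SE 0.08, adjusted p = 1.64e-07 in edgeR). Any part of these genes in the values of the transporters was not tested.

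**Figure D5:**
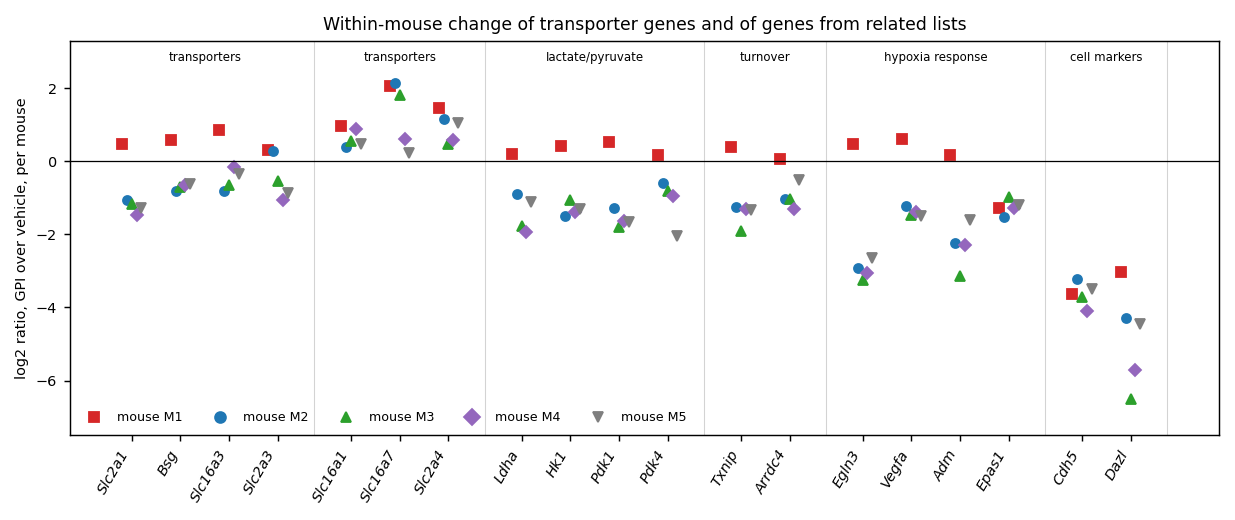
Log2 ratio of GPI over vehicle within each mouse (vertical axis; 1 symbol per mouse) for 7 transporter genes and for genes of the other lists. M1 (red squares) lies above 0 and M2 to M5 below 0 for Slc2a1, Bsg, Slc16a3, Ldha, Hk1, Pdk1, Pdk4, Txnip, Arrdc4, Egln3, Vegfa and Adm, while Epas1, Cdh5 and Dazl lie below 0 in all 5 mice.

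Markers of several cell types moved with GPI, and their counts of calls stand against 11.1% higher and 11.9% lower among all tested genes. In RNA of whole gonads, fewer cells of a type and less RNA per cell cannot be told apart. All 10 endothelial markers were called lower (median -3.11), with summed normalized counts of 7909, 8217, 7584, 8777 and 7856 with vehicle and 911, 1073, 738, 597 and 774 with GPI. Cdh5, the most abundant of them, which encodes the endothelial cadherin and is overlapped by Gm29682 on the other strand, fell in 5 of 5 mice (-3.63, SE 0.12, adjusted p = 3.76e-10 in edgeR), as did Pecam1 (-4.16) and Flt1 (-5.18), an adhesion molecule and a VEGF receptor. The sum in treated M1 lay within the range of the other treated gonads. The part of endothelial cells in the values of the transporters was not tested. None of the 10 was at 0 in any library.

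Of 10 germ cell markers, 6 passed the filter and 5 were called lower (median -3.67). All 10 markers together summed to 1411, 2614, 1679, 2272 and 1105 normalized counts with vehicle and 266, 277, 110.0, 89.0 and 202 with GPI. Dazl, an RNA-binding protein gene and the most abundant marker, fell in 5 of 5 mice (-4.62, SE 0.34, adjusted p = 5.6e-07 in edgeR), as did Ddx4 (-2.72, SE 0.45, adjusted p = 0.000515 in edgeR; -3.36 without M5). The other 3 called were Dppa3 (-5.20; -5.89 without M1), Sall4 (-4.89) and Prdm1 (-2.39). None of these 5 was at 0 in any library, while Pou5f1, Nanos2, Nanos3 and Tfap2c, which did not pass the filter, were each at 0 in at least 1 treated library (Nanos2 also in vehicle M3, M4 and M5). The part of germ cells in the values of the transporters was not tested.

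Of 6 fetal Leydig cell markers, 5 were tested, and all 5 were called higher (median 1.75). The 6 markers summed to 1463, 3035, 4247, 2211 and 5604 with vehicle and 10099, 10636, 16332, 18657 and 13579 with GPI. The most abundant, Hsd3b1, a steroidogenic dehydrogenase gene, rose in 5 of 5 mice (1.75, SE 0.20, adjusted p = 2.71e-05 in edgeR), as did the steroidogenic genes Cyp17a1 (3.90), Cyp11a1 (2.90) and Star (0.79) and the gene of their regulator, Nr5a1 (1.11). The authors use SF1, the protein of Nr5a1, as a marker of supporting cells, so the rise of Nr5a1 cannot be assigned to Leydig cells alone. Of 9 Sertoli cell markers, 6 were called higher and 0 lower in edgeR, with the same numbers in DESeq2 (median 0.59). The numbers at an unadjusted p under 0.05 were also the same, against 34% of all tested genes either way. The 9 markers summed to 2495, 3555, 2639, 3161 and 3517 with vehicle and 3188, 4705, 4806, 5655 and 4512 with GPI. Sox9 was the most abundant (0.59, SE 0.09, adjusted p = 0.000408 in edgeR). Sox8 (1.43) and Dhh (0.92) were among those called, and Amh, which encodes anti-Müllerian hormone, was not (0.08, adjusted p = 0.842 in edgeR; leave-one-out range -0.12 to 0.29). Cldn11, a tight junction gene, was not called either (0.21, adjusted p = 0.172 in edgeR; leave-one-out range 0.11 to 0.26), nor was Fgf9, a growth factor gene, which was lower with GPI in 4 of 5 mice (-0.33, adjusted p = 0.169 in edgeR). In M1, 5 of the 9 markers were higher with GPI. No Sertoli marker was at 0 in any library, and Insl3, the Leydig marker below the filter, was at 0 in vehicle M1 and M4 and treated M1 and M2. The part of these cells in the higher counts of Slc2a4, Slc16a1 and Slc16a7 was not tested.

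Of 11 erythroid markers, 9 were called lower (median -1.59), with sums of 2159, 2933, 5475, 5145 and 4331 with vehicle and 1890.0, 1030.0, 966, 1087 and 2536 with GPI. Hbb-y, an embryonic globin gene, was the most abundant (-0.98, SE 0.23, adjusted p = 0.0075 in edgeR). The adult globin genes Hbb-bt (-3.84) and Hbb-bs (-4.13) fell in 5 of 5 mice. The embryonic globin genes Hba-x (-0.45, adjusted p = 0.296 in edgeR) and Hbb-bh1 (-1.17, adjusted p = 0.0886 in edgeR) were not called, and Hba-x was higher with GPI in M1 and M5. Without M1, Hba-x was at -0.78 and was called (adjusted p = 0.032 in edgeR; 0.032 to 0.739 over all alternatives; leave-one-out range -0.78 to -0.18), so that 10 of the 11 were lower. Of 8 macrophage markers, 7 were called lower (median -2.03), with sums of 1064, 797, 806, 737 and 904 with vehicle and 384, 347, 384, 233 and 195 with GPI, and Lyz2, a lysozyme gene, was the most abundant (-1.65, SE 0.24, adjusted p = 0.000191 in edgeR). Csf1r (-2.22) and Ptprc (-1.85) were among those called, Adgre1 (-0.26; leave-one-out range -0.37 to -0.09) was not, and C1qa was at 0 in treated M5. The difference in the erythroid sum was smallest in M1, from 2159 to 1890.0, and its part in the values of the transporters was not tested.

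Of 5 interstitial progenitor markers, 1 was called higher and 2 lower (median -0.18). They summed to 14692, 15743, 16563, 14071 and 16144 normalized counts with vehicle and to 15617, 16702, 15119, 14249 and 17188 with GPI, and these ranges overlapped. Pdgfra, the most abundant, a growth factor receptor gene that contains Mir7025, was called higher (0.33, SE 0.07, adjusted p = 0.0022 in edgeR). Tcf21 (-0.30, SE 0.08, adjusted p = 0.0197 in edgeR), a transcription factor gene, was among those called lower, and lost its call without M2, M3 or M4 (-0.27, -0.26 and -0.29). Nr2f2, overlapped by B130024G19Rik on the other strand, was at -0.18 and was called with scaling by total counts alone (-0.23, adjusted p = 0.0441 in edgeR). None of the 5 was at 0 in any library.

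Of 4 pre-granulosa markers, which mark the supporting cells of the ovary, Wnt4, a signalling factor gene and the most abundant, was called lower (-0.78, SE 0.11, adjusted p = 0.000157 in edgeR; median of the 4, -0.36, and -0.60 without M1). Foxl2 (-0.54; leave-one-out range -0.87 to -0.15), Fst (-0.19; -0.41 to -0.02) and Rspo1 (-0.13; -0.26 to -0.07) were not called. They summed to 1688, 1748, 1675, 1504 and 1339 normalized counts with vehicle and 1350.0, 1077, 1082, 810.0 and 1170.0 with GPI, and none was at 0 in any library. Of 5 markers of mesonephric epithelium, the tissue cut away, Pax8, the most abundant, passed the filter and was not called (-0.28, SE 0.27, adjusted p = 0.526 in edgeR; leave-one-out range -0.55 to -0.01). The 5 summed to 706, 119, 310.0, 137 and 59.0 normalized counts with vehicle and 181, 274, 114, 110.0 and 98.0 with GPI, highest in vehicle M1. Pax2, Lhx1 and Cdh16 were each at 0 in at least 1 library. The part of this tissue in the values of vehicle M1 was not tested.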

How the data were processed

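RNA of 10 cultured gonads was analysed. The authors mapped reads to mm10 with STAR and deposited raw counts per RefSeq gene from featureCounts, taken without regard to strand. These counts were tested as deposited with edgeR 4.0.16 in R 4.3.3: TMM scaling, filterByExpr (minimum count 10, minimum total 15), quasi-likelihood test, and Benjamini-Hochberg adjustment over all 13941 genes left, at an FDR of 0.05. Each SE was taken as the size of the log2 fold change over the root of its F statistic. Counts of amplified reads are not independent molecules, so precision has to come from the spread between mice. The quasi-likelihood test moderates the spread of each gene with that of other genes, so no SE rests on its own gene alone. Slc2a1 had an SE of 0.21, while its log2 ratios within a mouse were 0.46 in M1 and -1.47 to -1.06 in M2 to M5. Where M1 went the other way, the SE may thus understate the spread between mice. A paired test on each gene alone was not run. Ratios within a mouse are differences of log2 CPM with a prior count of 2.

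The mouse was a term of the model because both gonads came from the same embryo; deviations from the group means correlated within a mouse with r from -0.04 to 0.155. TPM were computed here with exon lengths from GENCODE, found for 95.43% of tested genes. Count ratios, with a pseudocount of 0.5, were tested by exact permutation in scipy 1.17.1, over regroupings that ignore the pairing by mouse. Libraries of a group differed by more than sampling noise (lowest chi-square 6.42 per degree of freedom). The test was tried on simulated counts first.

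Members and the 14 other gene lists were chosen with earlier results of these data known. Genes named were the members, the tested genes of both related transporter lists, from each other list the first 2 and the 3 of smallest p, plus those behind a count of 5 or fewer, and the 5 most correlated with Slc2a1, Slc2a3, Slc16a1 and Slc16a3; Egln3, Hbb-y, Egln1, Vamp2, Cldn11, Fgf9, Hba-x and Hbb-bh1 were added after values were seen, and some genes under this rule are not reported here. Alternatives were no mouse term, DESeq2 1.42.0, its size factors, total counts only, no filter, at least 10 counts in every library, each mouse left out, a sign-flip test, a pseudocount of 5 and, chosen after seeing the data, correlations without M1. The place given to the fits without M1 was also chosen after seeing the data. An older symbol, Ero1l, was read as Ero1a.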

Additional observations from a re-analysis of the deposited data

Results flagged for a closer look

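In 32 of 198 groups of 5 libraries examined, the highest or lowest value lay far from the other 4: its gap to the nearest value, as a share of the whole range of the group, was above the limit that chance exceeds in about 1 in 20 groups. For 23 of the 32, the library was GPI-treated M1 and the value was the highest. Among the transporters this share was 0.905 for Slc2a1, 0.854 for Slc2a3, 0.79 for Slc16a3 and 0.913 for Bsg. In the other lists it was 0.794 for Ldha, 0.909 for Hk1, 0.904 for Pdk1, 0.736 for Pdk4, 0.858 for Txnip, 0.773 for Arrdc4, 0.945 for Egln3, 0.778 for Egln1, 0.869 for Vegfa and 0.73 for Adm. Among genes named for a similar pattern it was 0.911 for Gpi1, 0.791 for Asph, 0.858 for Jmjd6, 0.848 for Fam117b, 0.783 for Alkbh5, 0.754 for Plekhf2, 0.881 for Aldoa, 0.83 for Pgm1 and 0.754 for Plekha2. These genes were partly chosen for their likeness to each other, so that the count of groups is not one of independent events.

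Treated M1 was the lowest value for Sort1 (0.825) and treated M4 for Rspo1 (0.825). In the treated group M4 was far above the rest for Slc16a1 (0.731) and M3 for Tbc1d1 (0.751). In the vehicle group M2 was far above the rest for Hif1a (0.806), Adm (0.862) and Zbtb4 (0.859), and M1 was far above it for Slc16a13 (0.774) and far below it for Slc19a2 (0.799).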

How the results depend on the processing

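Between 2819 and 3472 genes were called under the 6 alternatives that kept all mice, and between 2311 and 3082 with a mouse left out, against 3198. With scaling by total counts alone, 1238 genes were called higher and 1972 lower, against 1544 and 1654. Of the 10 transporters, 3 to 5 were called under the former and 4 to 7 with a mouse left out, where the highest number was that without M1. The 3 called without the mouse as a block were Slc2a4, Slc16a1 and Slc16a7; without the block, 3108 genes were called in all. The calls of Slc2a4, Slc16a1 and Slc16a7 were kept under every alternative run, and that of Slc2a1 (adjusted p of 0.0351 or less in edgeR) under all but the fit without the block (0.348). Ldha, Hk1, Pdk1, Pdk4, Txnip, Arrdc4, Egln3, Vegfa, Gpi1, Asph and Jmjd6 also lost their calls without the block, with unchanged direction. Of these, Gpi1 (-0.70 with all mice) also lost its call in DESeq2 (-0.72) and without M2, M3, M4 or M5 (-0.69 to -0.54). Jmjd6 (-0.46 with all mice) lost its call without M2, M3, M4 or M5 as well (-0.43 to -0.42). Asph (-0.32 with all mice) lost its call without M3, M4 or M5 (-0.33 to -0.27). The adjusted p of the Slc16a3 to Slc16a1 ratio (exact permutation) ran from 0.0571 to 0.229 and its difference from -1.07 to -0.80. For the Slc2a3 to Slc2a1 ratio they ran from 0.0571 to 0.229 (exact permutation) and from 0.33 to 0.70. The sign-flip test over pairs gave 0.125 after adjustment for both ratios.

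Of 1055 comparisons of 97 named genes, 989 kept direction and side of the threshold, and 8 turned direction, each in a gene that was not called. With a mouse left out, log2 fold changes ran from -0.16 to 0.38 for Slc2a12, from -0.0798 to 0.13 for Slc16a4, from -0.12 to 0.29 for Amh (-0.0651 without M4) and from -0.36 to 0.27 for Emb, which was at 0.0041 without the block. The cause was not tested.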
